A study of Caenorhabditis elegans with 2 samples.

Results

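Occupancy by RPC-1, which forms the core of RNA polymerase III as its largest subunit, was described from chromatin immunoprecipitation and sequencing at 8 chaperone genes of Caenorhabditis elegans: hsp-1, hsp-3, hsp-4, hsp-6, hsp-60, hsp-70, hsp-75 and hsp-110. They are 8 of the 19971 nuclear protein-coding genes in the RefSeq annotation of WBcel235 (ce11), the build of the peak lists. The genes were chosen by family, with their RPC-1 signals in these same lists already known, so their signals and counts are given as a description and without a test. All 8 have a record in the annotation.

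The data came from 1 group of 2 samples, biological replicates 1 and 3, each from its own biosample. Both were whole young adult hermaphrodites of strain JK1107, which carries glp-1(q224), a temperature-sensitive allele of a receptor needed for germ cell proliferation (no growth temperature is stated in the labels). The worms were a transgenic line that stably expressed RPC-1 with GFP and FLAG at its C terminus, and the antibody recognised GFP. The sonication device was a Bioruptor for replicate 1 but a microtip for replicate 3, so effects of shearing and of replicate cannot be told apart. Because whole animals were used, binding in few cells and weak binding in many cannot be told apart either, and peak lists give no check of tissue markers. Samples without the tagged protein were not analysed here.

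RNA polymerase III makes short untranslated RNAs such as transfer RNA and 5S ribosomal RNA, whereas the genes of proteins, chaperones included, are transcribed by RNA polymerase II. Chaperones of the HSP70 class bind and release unfolded protein segments, helped by J-domain co-chaperones and by nucleotide exchange factors such as HSP110. HSP60 forms a chamber in which mitochondrial proteins fold, and HSP90 completes the folding of client proteins. Heat shock factor HSF-1 activates many of these genes through heat shock elements, which are alternating GAA and TTC units with a pair of bases between neighbouring units.

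The strongest peaks lay in non-coding DNA upstream of the genes, so the sequence around the strongest summits is shown first. The windows are 299 bases long, centred on the summit, from the RefSeq genome sequence (WBcel235) and on the strand of the chaperone gene. Capitals mark every pair of facing units, GAANNTTC or TTCNNGAA; both read the same on either strand, and overlapping pairs form 1 unbroken run of capitals. The first 4 windows belong to genes in the IDR list, the authors' thresholded list made from the replicate and pooled lists (IDR, irreproducible discovery rate), and hsp-3 is shown as a gene whose upstream peak was outside that list.
hsp-60, chrIII:1618981-1619279, plus strand: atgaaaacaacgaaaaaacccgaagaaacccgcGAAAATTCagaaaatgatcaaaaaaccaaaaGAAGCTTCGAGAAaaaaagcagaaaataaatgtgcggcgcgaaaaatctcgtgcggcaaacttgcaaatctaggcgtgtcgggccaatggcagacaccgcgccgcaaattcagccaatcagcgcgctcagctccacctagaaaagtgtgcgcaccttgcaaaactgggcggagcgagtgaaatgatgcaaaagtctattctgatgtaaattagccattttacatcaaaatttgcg
hsp-110, chrIII:8447000-8447298, minus strand: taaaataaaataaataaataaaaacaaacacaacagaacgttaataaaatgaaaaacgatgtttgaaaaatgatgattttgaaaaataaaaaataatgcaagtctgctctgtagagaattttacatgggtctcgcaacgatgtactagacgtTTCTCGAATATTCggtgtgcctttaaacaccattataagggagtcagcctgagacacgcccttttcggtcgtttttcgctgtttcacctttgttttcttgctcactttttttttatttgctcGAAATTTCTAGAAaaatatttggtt
hsp-1, chrIV:17278455-17278753, plus strand: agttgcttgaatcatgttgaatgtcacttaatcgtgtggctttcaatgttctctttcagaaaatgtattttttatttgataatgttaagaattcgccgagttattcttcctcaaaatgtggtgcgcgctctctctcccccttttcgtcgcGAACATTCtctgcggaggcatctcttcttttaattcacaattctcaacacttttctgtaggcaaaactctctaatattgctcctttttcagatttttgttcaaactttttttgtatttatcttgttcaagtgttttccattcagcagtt
hsp-6, chrV:4827038-4827336, minus strand: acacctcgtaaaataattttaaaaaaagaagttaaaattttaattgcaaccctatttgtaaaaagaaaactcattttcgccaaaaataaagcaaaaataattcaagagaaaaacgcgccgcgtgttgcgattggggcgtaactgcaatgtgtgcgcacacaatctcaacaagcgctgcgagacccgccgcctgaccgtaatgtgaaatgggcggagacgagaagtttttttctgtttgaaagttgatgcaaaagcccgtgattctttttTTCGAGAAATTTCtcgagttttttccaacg
hsp-3, chrX:6092040-6092338, minus strand: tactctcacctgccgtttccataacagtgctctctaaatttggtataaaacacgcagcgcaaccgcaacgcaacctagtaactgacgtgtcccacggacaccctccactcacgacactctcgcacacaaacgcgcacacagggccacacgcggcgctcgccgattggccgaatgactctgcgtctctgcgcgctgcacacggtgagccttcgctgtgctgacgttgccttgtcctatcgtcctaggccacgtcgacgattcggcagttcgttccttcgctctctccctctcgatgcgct

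Of these windows, that of hsp-110 had 4 pairs of units, that of hsp-60 had 3, that of hsp-6 had 2 and that of hsp-1 had 1, while that of hsp-3 had none. The window of hsp-4, not printed, had 2 pairs and that of hsp-70 had 3. Where 2 pairs overlapped, 3 alternating units stood in a row. The nearest such run was centred 9 bp from the summit at hsp-110, 79 bp from it at hsp-60 and 126 bp from it at hsp-6. The single pair at hsp-1 was centred 4.5 bp from the summit.

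Of the 8 chaperone genes, 5 had an IDR summit between 1000 bp upstream of the 5′ end and the end of the gene, a share of 62.5%. Over all protein-coding genes the same window held an IDR summit in 1287 of 19971 cases, or 6.44%. The 5 genes were hsp-60, hsp-110, hsp-1, hsp-70 and hsp-6. The 3 genes without one were hsp-3 and hsp-4, which encode endoplasmic reticulum chaperones, and hsp-75, which encodes a mitochondrial one, as do hsp-60 and hsp-6 among the 5. The median gene length was 2695 bp for the 8 genes and 2006 bp for all protein-coding genes, and a longer gene offers more sequence to a summit. In the promoter window, which began 500 bp before the 5′ end and closed 250 bp after it, 4 of the 8 genes had an IDR summit, against 2.97% of all protein-coding genes. The upstream summit of hsp-60 lay outside that window.

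The strongest IDR summit was upstream of the annotated 5′ end in all 5 genes. The same held for 56.2% of the 1287 protein-coding genes with an IDR summit in the window. It held for 65.2% of the 912 left when summits within 500 bp of a small RNA gene were put aside. Small RNA genes here were tRNA, tRNA pseudogene, snoRNA, snRNA, rRNA, signal recognition particle RNA and the like, without other genes annotated as ncRNA. Among the chaperone genes the strongest summit lay 612 bp upstream at hsp-60, 427 bp at hsp-6, 355 bp at hsp-1, 240 bp at hsp-110 and 82 bp at hsp-70. Outside protein-coding genes lay 4 of these summits. The summit of hsp-70 lay in an intron of uggt-2, the gene on the opposite strand that holds the whole of hsp-70.

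**Figure D1:**
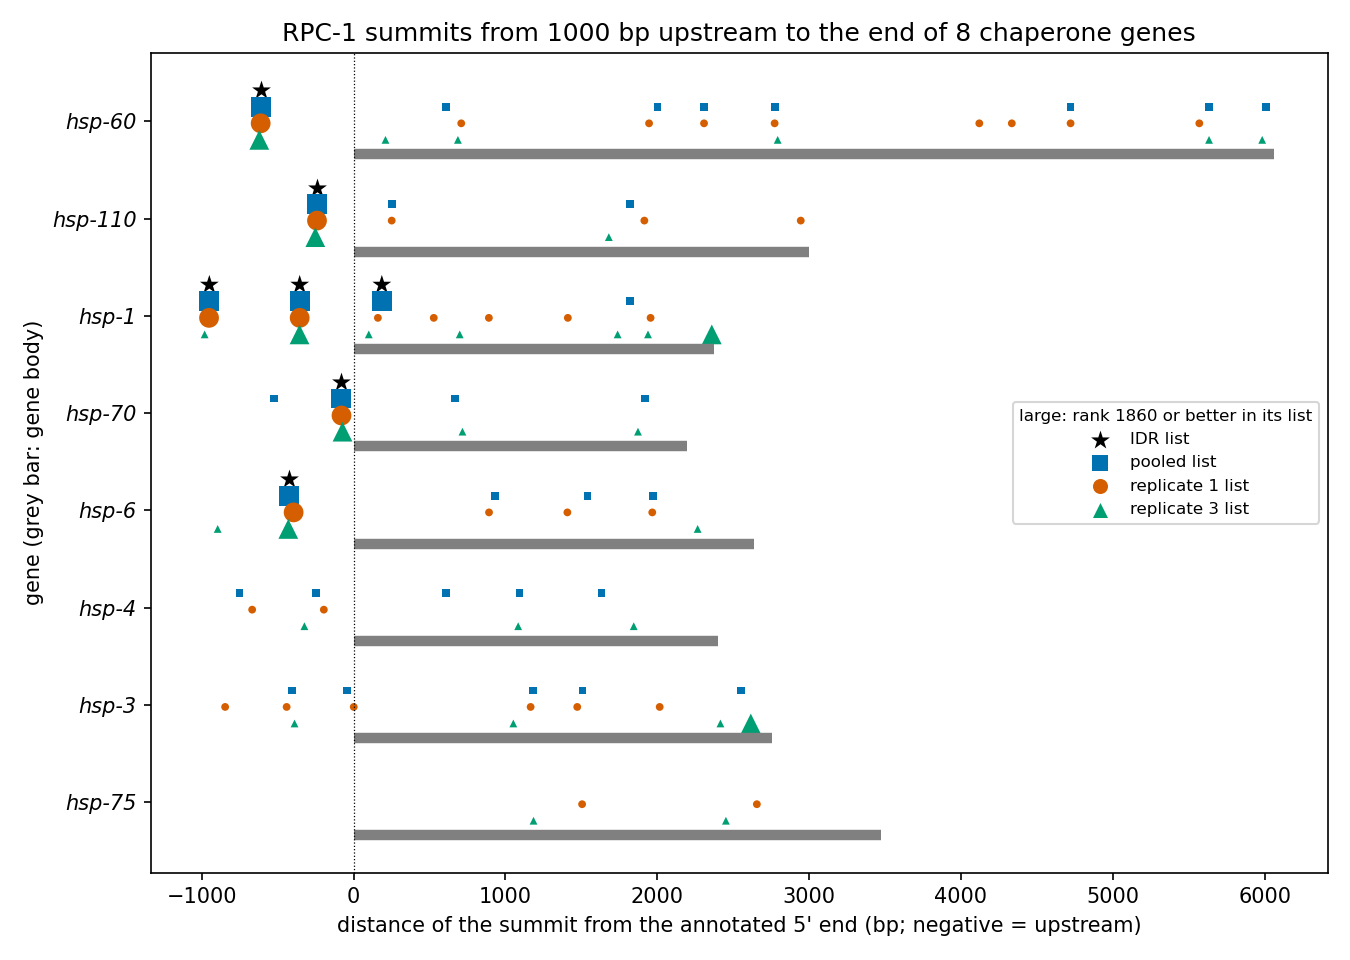
Each symbol is a summit of 1 deposited list, placed by its distance in bp from the annotated 5′ end of the gene (negative is upstream), with 1 row per list and a grey bar for the gene body. Large symbols rank 1860 or better in their list, the number of peaks in the IDR list, and at 5 of the 8 genes they stack upstream of the gene in all 4 lists. The IDR peaks are the strongest pooled peaks, and the pooled list was called on both replicates, so the 4 lists stem from 2 samples. Large symbols inside a gene are at hsp-1, 186 and 2359 bp in, and at hsp-3, 2616 bp in.

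The mitochondrial chaperonin gene hsp-60 (III, 1619742 to 1625803) had the highest signal of the 8. The deposited signal is the authors' own value per peak relative to a control alignment, and its scale differs between lists, so replicates are set side by side by rank. A peak's signal carries no read count, so no error is attached to it. The hsp-60 signal was 1266 in the IDR list, rank 609 of 1860 peaks. It was 1112 in replicate 1 (rank 589 of 29914) and 159 in replicate 3 (rank 708 of 30000). The 2 replicate summits were 9 bp apart. In the gene body, replicate 1 had 8 summits and replicate 3 had 5, none ranked better than 4958.

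The HSP110 gene hsp-110 (III, 8443910 to 8446909), an exchange factor for HSP70, followed with an IDR signal of 988 and rank 660. Its upstream peak had a signal of 874 and rank 632 in replicate 1, and of 119 and rank 749 in replicate 3, with summits 11 bp apart. A second summit 251 bp into the gene had a pooled signal of 31.9 and rank 3841, outside the IDR list.

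The constitutive cytosolic HSP70 gene hsp-1 (IV, 17278959 to 17281330) was the only one of the 8 with more than 1 IDR summit. Its strongest, 355 bp upstream, had a signal of 768 and rank 699, with rank 672 in replicate 1 and 782 in replicate 3 and summits 1 bp apart. The IDR peak there was 433 bp wide, the widest of the strongest peaks at the 5 genes. The second, 950 bp upstream, had a signal of 152 and rank 1018, and the nearest summits ranked 929 in replicate 1 and 19748 in replicate 3. The third, 186 bp into the gene in a coding exon, had a signal of 54.4 and rank 1858, next to the end of the IDR list, whose lowest signal was 54.30. Only the first of the 3 therefore ranked within 1860 in both replicates.

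The heat-inducible cytosolic HSP70 gene hsp-70 (I, 9320325 to 9322519) had an IDR signal of 217 and rank 924. Its peak ranked 928 in replicate 1, with a signal of 158, and 1146 in replicate 3, with a signal of 27. The replicate summits were 9 bp apart. It was the only summit of replicate 1 in the hsp-70 window.

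The mitochondrial HSP70 gene hsp-6 (V, 4824124 to 4826760) had the lowest IDR signal of the 5, 183, at rank 968. Its replicates differed more in rank than those of the other 4, with 925 in replicate 1 (signal 161) and 1566 in replicate 3 (signal 20). The summits were 35 bp apart. A summit 1541 bp into the gene had a pooled signal of 42.5 and rank 2472, outside the IDR list.

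**Figure D2:**
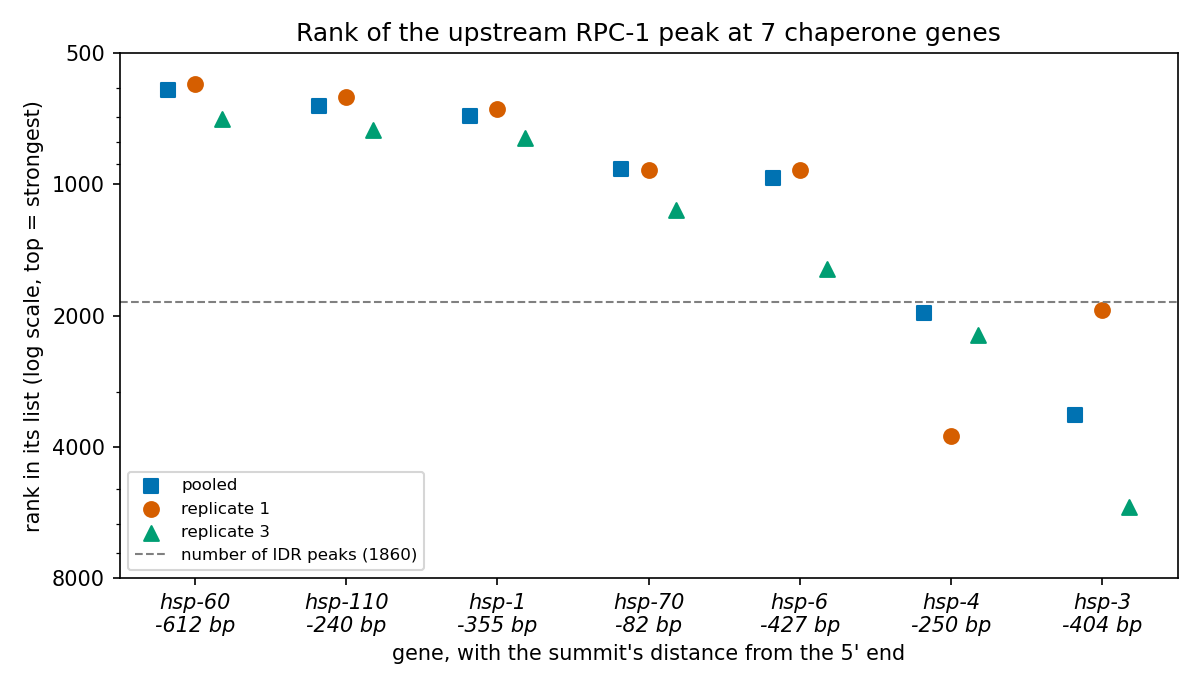
The vertical axis gives, on a log scale with the strongest at the top, the rank of the upstream peak in the pooled list and in each replicate list, for the 7 genes with a pooled summit; the dashed line is the size of the IDR list, 1860. At hsp-60, hsp-110, hsp-1, hsp-70 and hsp-6 all 3 ranks are above the line, and at hsp-4 and hsp-3 all 3 are below it.

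The order of the 5 genes was hsp-60, hsp-110, hsp-1, hsp-70, hsp-6 in the IDR list and in replicate 3. In replicate 1 the last 2 changed places, with neighbouring ranks of 925 and 928, so their order is not settled by these lists. The highest signals of the 5 genes had a median of 768. The median over all 1287 protein-coding genes with an IDR summit in the window was 143, and it was 90.7 over the 912 genes left when summits near small RNA genes were put aside. All 5 chaperone genes kept a summit without those near small RNA genes, as did 912 of the 1287 protein-coding genes. By that rule 5 of the 8 chaperone genes had a summit (62.5%), against 4.57% of all 19971 protein-coding genes. The ncRNA genes described below did not count as small RNA genes here. They lay within 500 bp of 3 of the 5 strongest summits.

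The endoplasmic reticulum HSP70 genes hsp-3 and hsp-4, both homologues of mammalian BiP, had weaker upstream peaks. At hsp-4 (II, 7350119 to 7352518) a summit 250 bp upstream had a pooled signal of 51.6 and rank 1970, just under the IDR list. It ranked 3772 in replicate 1 (signal 23.3) and 2219 in replicate 3 (signal 16.7), with summits 128 bp apart. At hsp-3 (X, 6089033 to 6091785) a summit 404 bp upstream had a pooled signal of 34.5 and rank 3379, with rank 1942 in replicate 1 (signal 40.1) and 5481 in replicate 3 (signal 11.7). At hsp-3 a further summit 1181 bp into the gene, in a coding exon, had a pooled signal of 33.5, so the upstream peak did not stand out from the gene body in that list.

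The gene hsp-75 (III, 7223233 to 7226707), which encodes a homologue of the mitochondrial HSP90 TRAP1, had no summit at all in the pooled list and none upstream of its 5′ end in either replicate. Its highest signal was 14.7 (rank 7581) in replicate 1 and 8.64 (rank 11428) in replicate 3, both inside the gene. A summit in the window of the relaxed lists is common. The pooled list had one at 7 of the 8 genes, against 53.9% of all protein-coding genes. Each replicate list had one at all 8, against 51% in replicate 1 and 64.3% in replicate 3. Summits of both replicates within 250 bp of each other occurred at all 8 genes, against 25.3% of all protein-coding genes. At hsp-75 that pair was 204 bp apart, 2656 and 2452 bp into the gene, with ranks of 13059 and 13619.

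Inside the 8 genes the pooled list had 22 summits, and 1 of them, the third peak of hsp-1, was in the IDR list. Upstream it had 11, of which 6 were in the IDR list. The 2 stretches differ in length, with 1000 bp upstream and gene bodies of 2195 to 6062 bp. The same split over all protein-coding genes is not given here, so these counts have no background.

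RNA genes within 500 bp were looked up because RNA polymerase III transcribes small RNA genes. Such a gene stood near 4 of the 8 chaperone genes or their IDR summits: hsp-1, hsp-6, hsp-70 and hsp-110. By the same rule 23.9% of all protein-coding genes had one. Within 500 bp of the strongest IDR summit itself there was an RNA gene at 3 of the 5 chaperone genes with such a summit, against 41.4% of the 1287 protein-coding genes. The 4 nearest to a strongest summit were annotated as ncRNA. At hsp-6 the summit lay inside both C37H5.15 and C37H5.16, which overlap on opposite strands. At hsp-110 the 53 bp gene C30C11.14 was 54 bp from the summit, and at hsp-1 F26D10.23 was 102 bp from it. Around hsp-60, which had the highest signal, no RNA gene of any class was annotated within 500 bp, and the same held for hsp-3, hsp-4 and hsp-75. Whether these ncRNA genes have a part in the signal was not tested.

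A snoRNA gene, F26D10.24, lies inside hsp-1, but no IDR summit was within 250 bp of it. The tRNA genes C12C8.t1 and C12C8.t6 lie 76 and 289 bp beyond the 3′ end of hsp-70. They have an IDR peak of their own with a signal of 1362 and rank 591, whose summit lies outside the hsp-70 window. The strongest hsp-70 summit was 2352 bp from the nearer of these tRNA genes. With peak intervals in place of summits, this tRNA peak reached the hsp-70 window and gave it the value of 1362 instead of 217.

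In 3 of the 5 genes the summit also lay within 1000 bp upstream of a neighbour on the opposite strand, against 25.6% of the 1287 protein-coding genes with an IDR summit. That share was 32.6% of the 912 genes left when summits near small RNA genes were put aside. In all 3 chaperone genes the summit was nearer to the neighbour's 5′ end than to that of the chaperone gene. The hsp-60 summit, 612 bp from its own gene, was 201 bp upstream of Y22D7AL.10, annotated as the mitochondrial co-chaperonin HSP10. The hsp-110 summit, 240 bp from its own gene, was 204 bp upstream of rpn-3, a proteasome subunit gene. The hsp-6 summit, 427 bp from its own gene, was 173 bp upstream of C37H5.5, annotated as a homologue of a nucleolar complex protein. The 5′ ends of these pairs were 444 bp apart at hsp-110, 600 bp at hsp-6 and 813 bp at hsp-60. The lists do not tell to which gene of a pair a peak belongs.

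Matches to the heat shock element were counted in the same 299 bp windows. A pair of units was found at all 5 strongest IDR summits of the chaperone genes, at 27% of the 1840 nuclear IDR summits and in 31.9% of windows of equal length centred 150 bp upstream of all protein-coding genes. A run of 3 alternating units, a form searched after the pairs had been seen, was found at 4 of the 5: hsp-60, hsp-110, hsp-70 and hsp-6. It was found at 3.64% of the nuclear IDR summits, at 5.29% of the 1153 that lay over 500 bp from small RNA genes, and in 1.93% of the promoter windows. Among the 333 of those distant summits with a signal at least that of hsp-6, 18 had the run (5.41%). Each of these sets of IDR summits includes the 5 chaperone summits, so the 18 include the 4 with the run. A match is a description of the letters in a window, and whether HSF-1 has a part in the RPC-1 signal was not tested.

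In the whole 1000 bp upstream, a run of 3 units was found at 5 of the 8 genes, including hsp-1, and at 6.53% of all protein-coding genes. A single pair was found at 7 of the 8, all but hsp-3, and at 73.6% of all protein-coding genes. The B-box is the internal promoter element of tRNA genes. Its core, GTTCGANNC on either strand, was in none of the 5 windows. The core was at 30.7% of the nuclear IDR summits, at 11.4% of those over 500 bp from small RNA genes and in 1.41% of promoter windows. With only 5 windows, a count of 0 is not set apart from these 3 shares. The core was found in 72.2% of the 612 nuclear tRNA genes, so the search misses part of them.

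**Figure D3:**
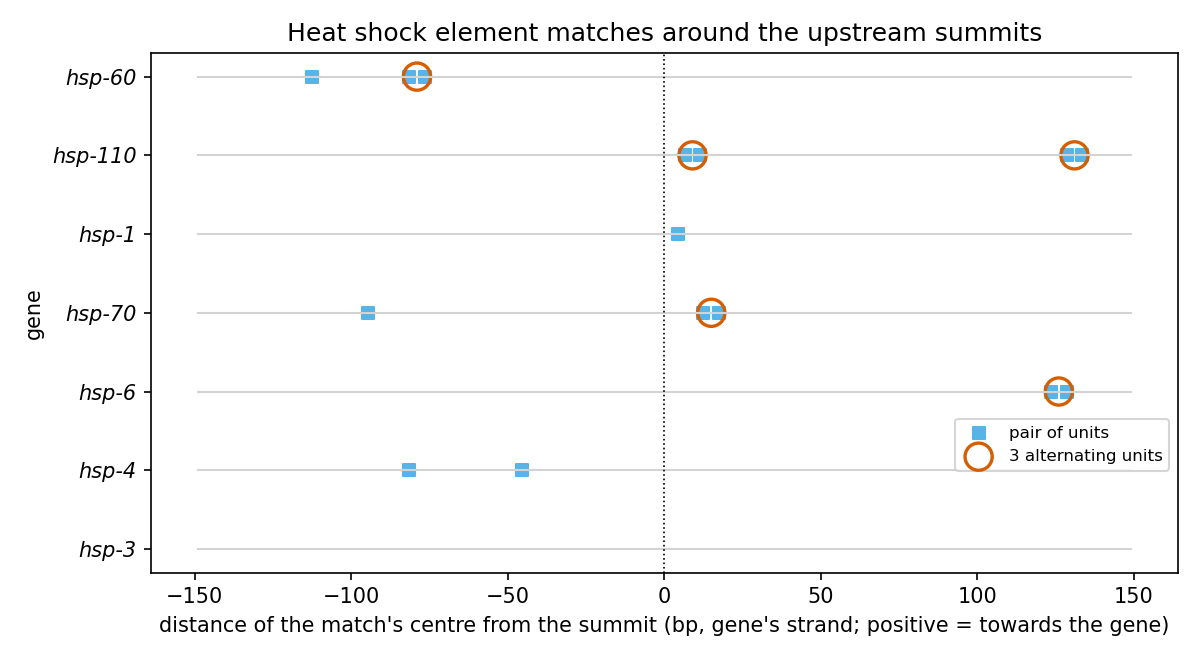
Horizontal lines are the 299 bp windows around the upstream summits of 7 chaperone genes, with the distance from the summit in bp on the axis; squares are pairs of facing units and circles are runs of 3 alternating units. Runs of 3 are present at hsp-60, hsp-110, hsp-70 and hsp-6, and the hsp-3 window has no match.

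Other chaperones and their regulators were taken from 5 lists with 70 genes in the annotation. An IDR summit lay in the window of 20 of them (28.6%), against 6.44% of all protein-coding genes. In the promoter 18 of the 70 had an IDR summit, against 2.97% of all protein-coding genes. In the whole window, the relatives of HSP70 and HSP90 had an IDR summit at 4 of 7 genes and their co-chaperones at 11 of 37. The stress regulators had one at 3 of 10 and the cytosolic chaperonin CCT at 2 of 8. Without summits near small RNA genes, the relatives had one at 3 of 7 genes, and all 5 lists at 19 of 70. By that rule the share of all protein-coding genes was 4.57%. Of the 8 endoplasmic reticulum folding genes, such as the calreticulin gene crt-1 and the protein disulphide isomerase genes, none had an IDR summit in the window. With so few genes, a count of 0 is not set apart from the share of 6.44% over all protein-coding genes.

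Among the relatives, the divergent HSP70 genes F44E5.4 and F44E5.5 shared a peak 153 and 198 bp upstream of their 5′ ends. Its signal of 2894 and rank of 348 were above those of all 8 listed genes, with rank 305 in replicate 1 and 589 in replicate 3. The 2 genes are close copies of each other, so reads between and within them may be split or lost, and their value is uncertain. Its window had 14 pairs of units. The cytosolic HSP90 gene hsp-90 had a summit 362 bp upstream with a signal of 283 and rank 870, and 2 pairs of units. The signal of 3141 at T24H7.2 came from a summit inside the snoRNA gene T24H7.6.

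The strongest co-chaperone was the J-domain gene dnj-13, with a summit 202 bp upstream, a signal of 1296 and rank 604. The BAG-domain gene unc-23 had a signal of 1028 and rank 648 at 66 bp upstream. The J-domain genes dnj-12, dnj-29 and dnj-9 had signals of 379, 306 and 178, and bag-1 had 195. Among the stress regulators the highest was pek-1, a kinase of the endoplasmic reticulum stress response, with a signal of 148. Of the 18 distinct summits of these lists away from small RNA genes, 5 had a run of 3 heat shock units (27.8%). Several weaker ones rested mainly on replicate 1: cct-8 and cct-1 ranked 1001 and 1007 there, and 6053 and 4360 in replicate 3. In the top 1860 peaks of replicate 3 alone, 12 of the 70 genes had a summit in the window.

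**Figure D4:**
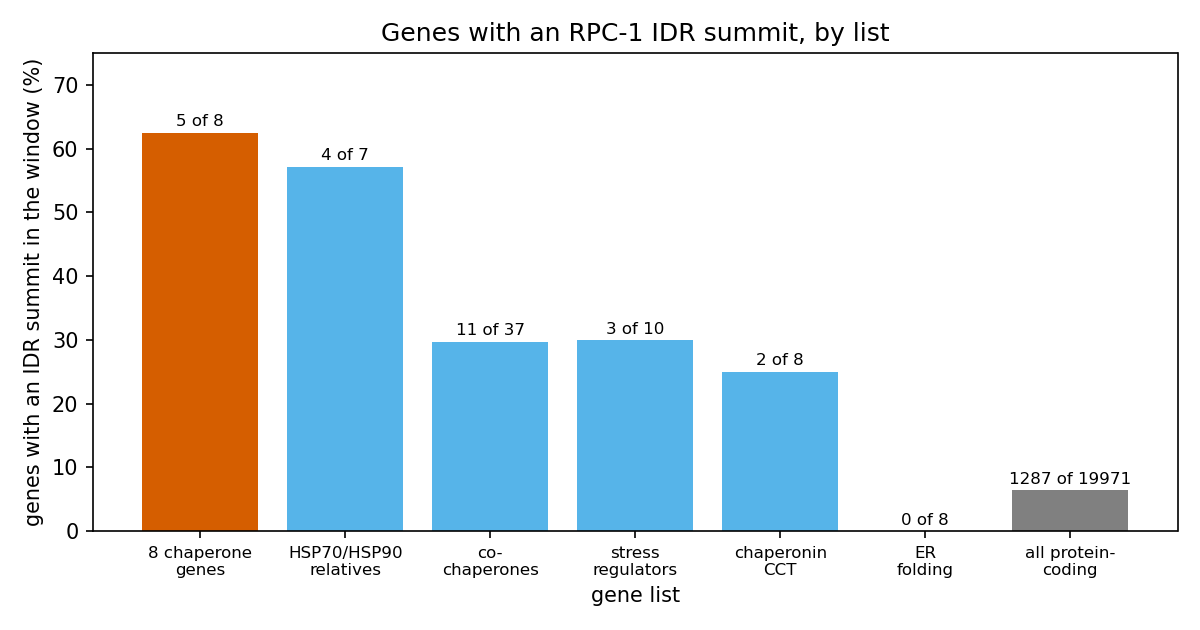
Bars give the percent of genes with an IDR summit between 1000 bp upstream and the gene's end, with the count above each bar. The 8 chaperone genes are at 62.5%, the HSP70 and HSP90 relatives at 57.1%, endoplasmic reticulum folding genes at 0 and all protein-coding genes at 6.44%. Among the relatives, F44E5.4 and F44E5.5 share a peak, and the summit of T24H7.2 lies inside a snoRNA gene. With only 8 folding genes, a bar at 0 is not set apart from 6.44%.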

How the data were processed

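RPC-1 occupancy was measured in 2 samples of 1 group. Peak lists on ce11 were used as the authors deposited them. Per the file headers of the deposited descriptions, 1 list was called for each sample and 1 on both samples pooled, each against a control alignment, and the IDR list was derived from these 3. The signal of each peak is the authors' value; how reads were aligned, which program called peaks and how deep the libraries are was not given in the sources used here, and control reads were not analysed here. The 1860 IDR peaks were the 1860 strongest pooled peaks. Lists on the older build ce10 were not used.

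Summits (peak start plus offset, written 1-based) were assigned to RefSeq WBcel235 genes from 1000 bp upstream of the 5′ end to the gene's end. Peaks were ranked by signal within each list. Shares of all 19971 nuclear protein-coding genes served as background, and no test was made. With 1 group of 2 samples, no p-value describes animals. Members, lists and motifs were chosen with earlier results of these data known. All 8 members are named. Of the wider lists, up to 10 genes with an IDR summit, highest signal first, were to be named, and pek-1, cct-1, cct-8 and crt-1 were chosen after their values were seen. Symbols daf-21 (listed also as hsp-90) and dnj-6 matched no record. The window counts were tested on simulated data. Python 3.11.15 and pandas 2.3.3 were used.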

Additional observations from a re-analysis of the deposited data

How the results depend on the processing

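Of 50 alternative values, 41 stayed within 1.5 times the main count or share or, for signals, were identical, and 9 moved. The count of 5 chaperone genes with an IDR summit ran from 4 (500 bp upstream, promoter only, the strongest 930 IDR peaks) to 7 (pooled list). Leaving out a replicate gave 5 to 6 of the 8 genes, 12 to 22 of the 70 wider genes and 6.28 to 6.38% of all protein-coding genes; hsp-3 entered without replicate 1, through its summit near the 3′ end. The share of all protein-coding genes moved to 2.97% in the promoter, 2.79% with the strongest 930 IDR peaks and 53.9% in the pooled list. The wider count of 20 moved to 8 with those 930 and 61 in the pooled list. Genes with summits of both replicates within 250 bp numbered 5 among the top 1860 peaks of each replicate, against 8. With 250 bp to either side of the 5′ end, 2 of the 5 strongest summits stayed in the promoter, against 4. For hsp-70 the signal moved to 1362 with interval overlap. The alternatives that left out small RNA summits (5 genes, 4.57%) or required 3 units were chosen after seeing the data. For hsp-60 no promoter-only signal exists. No paired analysis was possible because the series has 1 group. Depth is unknown, so a gene outside a list is not shown to be unbound.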

Other observations

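Replicate 3 had strong summits near the 3′ ends of 2 chaperone genes. At hsp-1 a summit 2359 bp into the gene, in a UTR exon, had a signal of 23.7 and rank 1288 in replicate 3. In the gene window, the nearest summit to it was 1956 bp into the gene in replicate 1 and 1819 bp in the pooled list. At hsp-3 a summit 2616 bp into the gene, also in a UTR exon, had a signal of 21.9 and rank 1387 in replicate 3. It outranked the upstream summit of that gene (rank 5481). The nearest summit in the hsp-3 window was 2016 bp into the gene in replicate 1 (rank 19173) and 2550 bp in the pooled list (rank 11870). In replicate 1 no summit inside any of the 8 genes ranked within 1860, the best being that of hsp-6 at 2110. The replicates differ in shearing as well as in animals, which cannot be told apart.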
